A study of Mus musculus with 6 samples.

Results

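The genes described here encode the chemokines, the growth factors and the storage proteoglycan of the platelet alpha granule, and they comprise Pf4, Ppbp, Ccl5, Pdgfa, Pdgfb, Igf1, Egf, Vegfc and Srgn. Every probe set that the platform annotation assigned to 1 of these 9 genes alone was taken, which gave 16 of the 45037 probe sets that were not array controls, and 9 of 18193 genes with a probe set of their own. All 16 passed the filter on dim probe sets, which kept the brighter 50% by mean signal, and were tested. Expression had been measured on 6 arrays of mouse megakaryocytes differentiated from fetal liver cells in medium with thrombopoietin, on a mixed C57BL/6xSv129 background, and mature cells had been separated by centrifugation through bovine serum albumin. The control group held 3 arrays, of which replicates 1 and 2 were FOG1+/- and replicate 3 was FOG1+/+. Among the controls, genotype and replicate number therefore cannot be told apart. The other 3 arrays were FOG1-/- ki/ki cultures, called FOG1 ki/ki here, replicates 1 to 3. FOG1 is a cofactor of GATA transcription factors, and the labels do not say which sequence the knocked-in allele carries or whether cultures pooled several embryos. The comparison addressed how transcripts of FOG1 ki/ki megakaryocyte cultures differ from those of the control cultures.

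Megakaryocytes synthesise most alpha granule cargo themselves, pack it into granules and pass it to the platelets they shed, while some other cargo is taken up from the surroundings. Pf4 (platelet factor 4, CXCL4) and Ppbp (pro-platelet basic protein, the precursor of CXCL7) are CXC chemokines that are hallmark products of this lineage, and Ccl5 (RANTES) is a CC chemokine also made by lymphocytes and macrophages. Pdgfa and Pdgfb encode the chains of platelet-derived growth factor, a mitogen of mesenchymal cells. Igf1, Egf and Vegfc encode insulin-like growth factor 1, epidermal growth factor and a growth factor of lymphatic vessels. Srgn encodes serglycin, a proteoglycan whose sulphated chains retain basic proteins such as platelet factor 4 in the granule.

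Because FOG1 acts through GATA factors, the sequence just upstream of the transcription start was examined for the 7 member genes with an entry in the RefSeq promoter table. The 4 promoters below are shown because 2 belong to neighbouring genes whose signals were alike in both groups (Pf4, Ppbp) and 2 to genes whose signals lay lower in FOG1 ki/ki (Igf1, Vegfc). Each is given from 250 bases before the start to the base before it, with every GATA or its complement TATC in capitals.
Pf4 (GRCm38.p6, chr5:90772185-90772434, plus strand): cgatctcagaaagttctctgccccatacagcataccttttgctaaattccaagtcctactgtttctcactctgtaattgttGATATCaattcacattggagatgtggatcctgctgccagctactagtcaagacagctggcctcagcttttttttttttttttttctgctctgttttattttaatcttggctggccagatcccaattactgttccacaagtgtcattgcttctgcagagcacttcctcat
Ppbp (GRCm38.p6, chr5:90768268-90768517, plus strand): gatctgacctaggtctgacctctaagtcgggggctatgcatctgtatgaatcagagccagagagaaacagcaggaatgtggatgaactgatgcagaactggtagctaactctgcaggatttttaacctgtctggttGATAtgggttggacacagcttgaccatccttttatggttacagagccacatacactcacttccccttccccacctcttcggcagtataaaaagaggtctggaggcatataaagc
Igf1 (GRCm38.p6, chr10:87860861-87861110, plus strand): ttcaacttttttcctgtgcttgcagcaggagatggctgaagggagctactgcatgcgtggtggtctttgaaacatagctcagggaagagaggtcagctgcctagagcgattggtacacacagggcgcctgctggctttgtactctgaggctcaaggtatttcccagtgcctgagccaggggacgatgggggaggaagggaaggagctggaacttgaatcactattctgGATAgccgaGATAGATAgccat
Vegfc (GRCm38.p6, chr8:54077282-54077531, plus strand): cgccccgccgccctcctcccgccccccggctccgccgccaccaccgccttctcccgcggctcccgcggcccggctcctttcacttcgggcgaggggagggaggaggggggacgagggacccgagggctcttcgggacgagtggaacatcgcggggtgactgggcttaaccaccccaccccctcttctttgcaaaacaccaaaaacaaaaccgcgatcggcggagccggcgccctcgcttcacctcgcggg
The Pf4 window held GATA on both strands in 1 overlapping match, 169 and 167 bases before the start, and Ppbp held 1 match, 114 bases before it. Igf1 held 3 matches, at 22, 13 and 9 bases, and Vegfc held 0. Among 32851 mouse promoter windows of this length, 53.6% held at least 1 GATA on either strand and 24.2% at least 2, so the matches are common letters. Of the 10 member windows, 5 held at least 1. Among those not shown, both Pdgfa windows held 0, and Srgn and Egf each had 1 window with 1 match and 1 window with 0. The longer form AGATAA, with T also accepted as its first base and G as its last, was searched on both strands and occurred in 26.5% of windows and in 2 of the 10 member windows. These were Igf1, with 2 overlapping copies of AGATAG at 14 and 10 bases, and 1 of the Egf starts. A match is a description of sequence and not of binding.

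The members are described here in 2 sets, by the size of their mean differences. Pf4, Ppbp, Srgn and Egf had nearly equal mean signals in both groups, with log2 differences between -0.05 and 0.01. All 12 probe sets of Ccl5, Pdgfa, Pdgfb, Igf1 and Vegfc had lower signals in FOG1 ki/ki than in the control of the same replicate number in all 3 pairs, with mean log2 differences from -0.60 to -2.00, where the log2 of the signal plus 16 was analysed. No member passed the test. With limma and Benjamini-Hochberg adjustment over all 22518 probe sets tested, 0 of the 16 were called, against 0.0666% of all probe sets, and the smallest adjusted p was 0.347 (Pdgfa). With the replicate number as a block, 0 were called against 0.524%, and the smallest adjusted p was 0.079. At an unadjusted p under 0.05, 11 of the 16 were lower and 0 higher, against 3.45% of all probe sets that were lower. With the block these were 12, against 8.77%. All FOG1 ki/ki arrays lay below all control arrays for 8 of the 16, against 4.9%, and 12 of the 16 were lower in all 3 pairs, against 18.1%. These counts include 2 dim Vegfc probe sets that passed the brightness limit through the control arrays only and so had to be lower. Over the other 14 probe sets they were 9 at an unadjusted p under 0.05, 10 with the block, 6 without overlap and 10 lower in all 3 pairs. The shares of all probe sets that meet this stricter limit in both groups were not computed. The shares given above are over all 22518 tested and are not a match for these counts. The median log2 difference was -1.23 over the member probe sets and 0.03 over all probe sets tested. The 16 probe sets are not 16 independent measurements, because 4 report Igf1, 3 report Vegfc and 2 each report Pdgfa and Pdgfb. The members were also chosen with earlier results of these data known. The counts beside the shares of all probe sets are therefore a description and not an independent test. The labels call the cultures biological replicates.

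**Figure D1:**
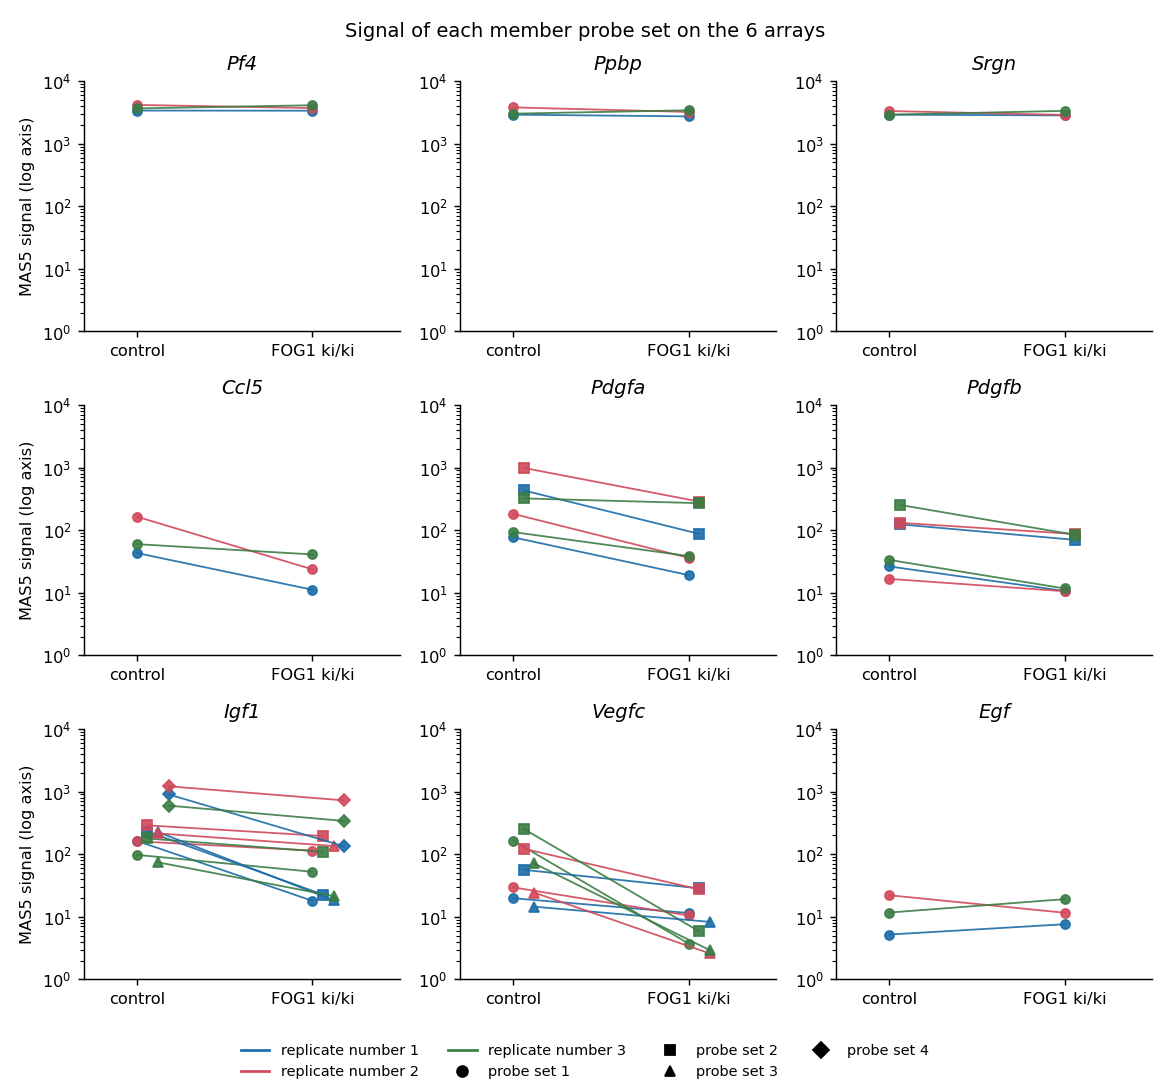
MAS5 signal (log axis) of each member probe set on the 3 control and 3 FOG1 ki/ki arrays, 1 panel per gene. Lines join arrays with the same replicate number and marker shapes stand for different probe sets of a gene. The lines are nearly flat for Pf4, Ppbp and Srgn, cross for Egf, and slope down in every pair for the other 5 genes.

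Megakaryocyte markers were abundant, and markers of other cell types were detected beside them. Of 12 megakaryocyte markers, the 10 with a probe set of their own were all above the brightness limit, and the sum of their signals was 17392 to 23797 in controls and 14925 to 20419 in FOG1 ki/ki. All 10 had lower means in FOG1 ki/ki (median log2 difference -0.22), and 0 passed limma without the block. With the block 1 fell, the collagen receptor gene Gp6 (log2 difference -1.35, adjusted p = 0.0439, or 0.149 with no filter on dim probe sets). The sum over 13 of 14 macrophage markers was 8321 to 14335 in controls and 3986 to 11023 in FOG1 ki/ki, lowest in FOG1 ki/ki replicate 1, and Cd163 was below the brightness limit. The sum over 11 fibroblast markers was 217 to 7135 and 149 to 2872, and that over 9 mast cell markers 238 to 2743 and 4570 to 5170. Fcer1a was a large part of the mast cell sum, with 1891, 2168 and 93.1 in the controls and 3317, 3696 and 3912 in FOG1 ki/ki. Its log2 difference was 2.25, or 0.84 without control replicate 3. All 7 mast cell markers tested were higher in FOG1 ki/ki, and 0 passed limma without the block. With the block 1 rose, Ms4a2, which read 102, 62.9 and 13.3 in the controls and 704, 564 and 189 in FOG1 ki/ki. Its log2 difference was 2.77, with pair differences of 2.61, 2.88 and 2.81. The limma adjusted p was 0.253, or 0.0189 with the block and 0.0704 with the block and no filter on dim probe sets. The sum over 7 endothelial markers was 559 to 642 in controls and 1175 to 1454 in FOG1 ki/ki, and of the 6 tested 3 were higher and 3 lower. Both replicate 3 arrays stood apart, with 2710 and 3877 for the sum of 8 neutrophil markers against 8503 to 14742 on the other arrays, and 39.8 and 110 for 4 eosinophil markers against 1448 to 2218. The ratio of 3′ to 5′ Gapdh signal ran from 1.20 to 2.38 and was highest in FOG1 ki/ki replicate 3. The highest signal on an array was between 4387 and 5653. In such bulk samples, fewer cells of a type and less RNA per cell cannot be told apart.

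Pf4, the most familiar megakaryocyte chemokine gene, gave almost the same signal in both groups. Its probe set (1448995_at) read 3377, 4156 and 3655 in control replicates 1 to 3 and 3358, 3700 and 4105 in FOG1 ki/ki replicates 1 to 3. The groups overlapped fully, and the pair differences were -0.01, -0.17 and 0.17 on the log2 scale. Control arrays averaged 3729 ± 395 and FOG1 ki/ki arrays 3721 ± 374 (SD, 3 arrays in each group), and the log2 difference of -0.0028 had a 95% interval from -0.27 to 0.26 (limma, SE 0.11, adjusted p = 0.9999).

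Ppbp, which lies next to Pf4 on the chromosome, behaved alike. It read 2905, 3797 and 3012 in the controls and 2724, 3209 and 3411 in FOG1 ki/ki (1418480_at). Replicate 2 was the highest control and replicate 3 the highest FOG1 ki/ki array, as for Pf4. The log2 difference was -0.05, with a 95% interval from -0.37 to 0.26 (limma, adjusted p = 0.9999).

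Srgn, the proteoglycan that holds basic chemokines in the granule, read 2902, 3321 and 2902 in the controls and 2823, 2872 and 3338 in FOG1 ki/ki (1417426_at). Its groups overlapped as well. The log2 difference was -0.02, with a 95% interval from -0.27 to 0.24 (limma, adjusted p = 0.9999). The intervals of Pf4, Ppbp and Srgn leave out a halving or a doubling of the signal.

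These 3 probe sets were near the top of the array's range. Among 294 probe sets with a mean signal over 2500, the central 90% of log2 differences lay between -0.14 and 0.12, and 2 exceeded 0.5 in size (0.68%, against 15.6% of all probe sets tested). Among the 173 probe sets over 2500 on every array, the log2 differences ran from -0.17 to 0.24. The median difference of the 294 was -0.01, -0.10 and 0.24 in pairs 1, 2 and 3, the same order as in Pf4, Ppbp and Srgn. Whether the signal of these probe sets had levelled off was not tested.

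Egf was close to background throughout. It read 5.20, 22.1 and 11.7 in the controls and 7.60, 11.6 and 19.1 in FOG1 ki/ki (1418093_a_at). The groups overlapped and the pairs went in both directions. The log2 difference was 0.01 with a 95% interval from -0.65 to 0.67 (limma, adjusted p = 0.9999), and its mean, 13.0 and 12.8, lay just above the limit of 10.3 set by the filter on dim probe sets.

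Ccl5, the chemokine that attracts T cells and monocytes, had lower signals in FOG1 ki/ki in all pairs. It read 43.2, 164 and 59.9 in the controls and 11.2, 23.7 and 41.0 in FOG1 ki/ki (1418126_at). The groups did not overlap, but the highest FOG1 ki/ki array and the lowest control differed by little. The mean went from 89.2 ± 65.7 to 25.3 ± 14.97 (SD, n = 3 each), a log2 difference of -1.24 (limma, SE 0.47, adjusted p = 0.714, or 0.203 with the replicate block). The pair differences were -1.12, -2.18 and -0.41, so the size varied between pairs. Without control replicate 2, the brightest array, the log2 difference was -0.76. Of 11 T and NK cell markers, 9 were below the brightness limit, including Cd3e, Cd3d, Cd3g and Cd8a. The summed signal of all 11 was 296 to 371 in controls and 633 to 853 in FOG1 ki/ki. Nkg7 made up most of it except in control replicate 3, where Nkg7 read 34.7 and Prf1 247. The means of Nkg7 were 171 and 605 (log2 difference 2.06, limma adjusted p = 0.464), while Prf1 of cytotoxic cells had a log2 difference of -0.22.

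Pdgfa and Pdgfb encode the A and B chains, which pair as homodimers or a heterodimer. The brighter Pdgfa probe set (1449187_at) read 433, 990 and 322 in the controls and 87.5, 287 and 271 in FOG1 ki/ki. Each FOG1 ki/ki array lay below each control, though replicate 3 of both groups was close. The pair differences were -2.12, -1.73 and -0.24, and the mean log2 difference was -1.36 (limma, SE 0.53, adjusted p = 0.727, or 0.173 with the replicate block). Leaving out control replicate 2 gave -0.91, and leaving out FOG1 ki/ki replicate 1 gave -0.86.

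The dimmer Pdgfa probe set (1418711_at) read 77.1, 183 and 93.5 in the controls and 19.2, 36.2 and 38.7 in FOG1 ki/ki. Here the controls and FOG1 ki/ki were well apart. Its log2 difference of -1.45 (SE 0.37, limma adjusted p = 0.347) was the closest of the members to the threshold, and the blocked fit gave it an adjusted p of 0.079. The pair differences of -1.40, -1.93 and -1.002 were more even than those of the brighter probe set, and the 2 probe sets differed most in pair 3.

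Pdgfb showed the smallest shift of the 5 genes, and its FOG1 ki/ki arrays lay close together. The brighter probe set (1450414_at) read 124, 131 and 254 in the controls and 70.0, 86.9 and 84.4 in FOG1 ki/ki. The FOG1+/+ control was the highest array, and the FOG1+/- controls lay nearer to FOG1 ki/ki. The mean went from 170 ± 72.9 to 80.4 ± 9.12 (SD, n = 3 each), with a log2 difference of -0.88 (limma, SE 0.33, adjusted p = 0.701, or 0.184 with the replicate block). The difference was -0.58 without the FOG1+/+ control.

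The dimmer Pdgfb probe set (1450413_at) read 26.4, 16.7 and 33.6 against 10.7, 10.6 and 11.7. It differed in the same direction in each pair, and its log2 difference was -0.60 (limma, adjusted p = 0.771). Its signals were near background, so the pseudocount of 16 shrinks this value, which was -1.09 with a pseudocount of 1.

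Igf1, a growth factor that macrophages and stromal cells also produce, was reported by 4 probe sets. The brightest (1452014_a_at) read 903, 1214 and 597 in the controls and 134, 723 and 339 in FOG1 ki/ki. FOG1 ki/ki replicate 1 was by far the lowest, while FOG1 ki/ki replicate 2 exceeded the FOG1+/+ control, so the groups overlapped. The pair differences were -2.62, -0.74 and -0.79, and the mean log2 difference was -1.38 (limma, SE 0.54, adjusted p = 0.742, or 0.187 with the replicate block). Without FOG1 ki/ki replicate 1 it was -0.79.

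The other Igf1 probe sets had the same order of the arrays within FOG1 ki/ki. Probe set 1419519_at read 163, 161 and 97.6 against 18.0, 114 and 52.3, 1434413_at read 230, 289 and 178 against 22.6, 195 and 109, and 1437401_at read 226, 215 and 74.1 against 18.4, 135 and 21.4. Their log2 differences were -1.19, -1.28 and -1.56, and the first pair differed most in each, by -2.40, -2.67 and -2.82. Their groups overlapped in all 3 cases. Without FOG1 ki/ki replicate 1 the log2 differences were -0.70, -0.59 and -1.19.

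Macrophage markers also differed most in pair 1. The sum of 13 of 14 of them was 10769, 14335 and 8321 in the controls and 3986, 11023 and 7569 in FOG1 ki/ki, and the median log2 difference of the 12 tested was -1.93, -0.43 and -0.30 in pairs 1, 2 and 3. Cd68, a lysosomal protein of macrophages, read 1102, 1532 and 1014 in the controls and 191, 959 and 628 in FOG1 ki/ki. Trem2, a macrophage receptor, read 210, 125 and 125 against 25.8, 87.7 and 58.9. Of the 12 markers tested, 12 were lower in FOG1 ki/ki and 0 passed limma's test. The part of macrophages in the Igf1 and Ccl5 differences was not tested.

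Vegfc, the ligand of the lymphatic receptor VEGFR-3, was reported by 3 probe sets, all highest in the FOG1+/+ control, which is control replicate 3. The brightest (1439766_x_at) read 56.3, 122 and 254 in the controls and 28.5, 27.4 and 5.87 in FOG1 ki/ki. The groups did not overlap, and the replicate 3 arrays were the extremes of both. Its log2 difference of -2.00 was the greatest among the members (limma, SE 0.52, adjusted p = 0.351, or 0.181 with the replicate block). The pair differences were -0.70, -1.67 and -3.63, and without the FOG1+/+ control the mean was -1.52. The fibroblast marker sum of the FOG1+/+ control was 217, the lowest of the controls. The part of other cells in the Vegfc differences was not tested.

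The dimmer Vegfc probe sets read 19.8, 29.5 and 165 against 11.5, 10.5 and 3.74 (1419417_at) and 14.5, 24.4 and 71.2 against 8.30, 2.60 and 2.94 (1440739_at). Both showed no overlap between the groups. Their log2 differences were -1.45 and -1.22 (limma, adjusted p = 0.741 and 0.542), and without the FOG1+/+ control they were -0.73 and -0.78. Their FOG1 ki/ki means of 8.58 and 4.61 were under the brightness limit, so the control arrays alone carried them over it. FOG1 ki/ki signals of all 3 probe sets were close to the dim end of the array, where the differences depend on the pseudocount. With a pseudocount of 1 they were -2.76, -2.42 and -2.58, and with one of 64 they were -1.20, -0.75 and -0.51.

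**Figure D2:**
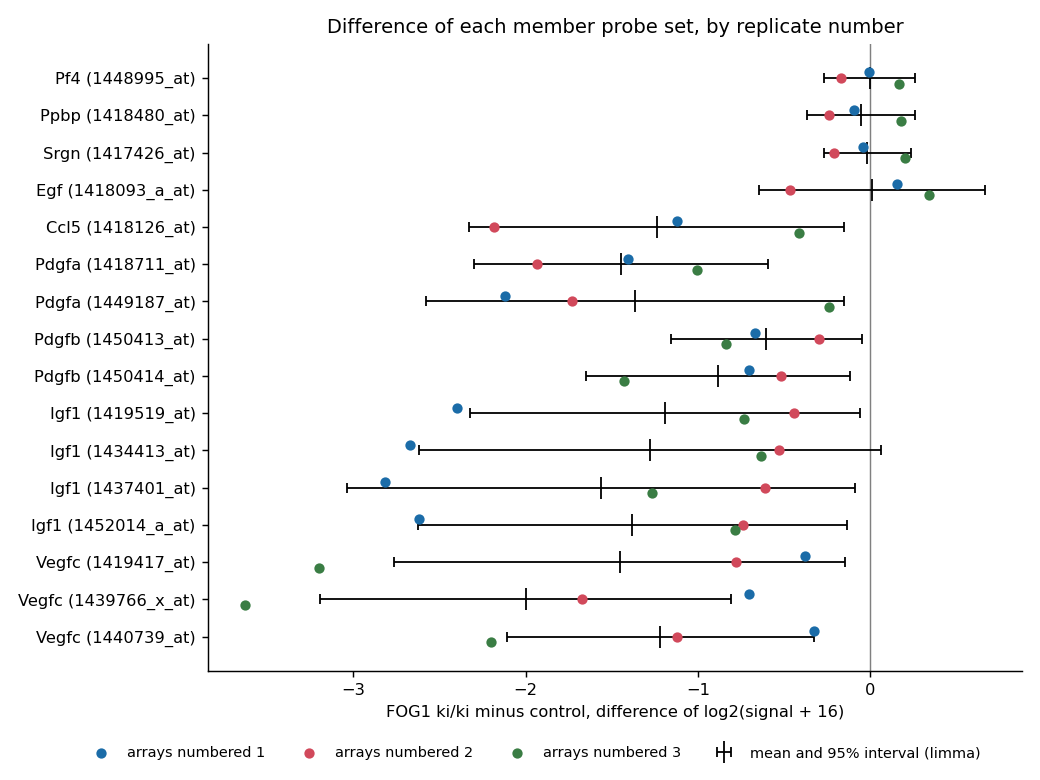
Difference of log2(signal + 16), FOG1 ki/ki minus control, for each of the 16 member probe sets. Coloured points are the 3 pairs of arrays with the same replicate number, and the black bar and whiskers are the mean and its 95% interval from limma without the replicate block. Pf4, Ppbp, Srgn and Egf straddle 0, all pairs of the other 5 genes lie below 0, and pair 1 is the lowest for Igf1 and pair 3 for Vegfc and Pdgfb.

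The 5 genes with lower signals did not share one pattern across the pairs. Igf1 differed most in pair 1, Ccl5 in pair 2, Pdgfb and Vegfc in pair 3, and the Pdgfa probe sets in pair 1 or pair 2. Across the 6 arrays, Pearson's r of the brightest probe sets was 0.93 for Pdgfa with Igf1, 0.925 for Pdgfa with Ccl5 and 0.901 for Pdgfb with Vegfc, but 0.486 for Igf1 with Vegfc. These values share the group difference and the array scaling and describe 6 arrays only. For Pf4, r was 0.949 with Ppbp, 0.914 with Srgn and 0.982 with the dim Egf, and among 11259 other genes the most like it were Pi4k2a (0.9896), Wdr60 (0.9889) and Rpl27a (0.9869). The differences between the 6 Pf4 signals were small, so that these likenesses rest on a narrow range.

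Pf4 and Ppbp sit within a row of CXC chemokine genes on chromosome 5, in the order Cxcl5, Ppbp, Pf4, Cxcl3, Cxcl15, Cxcl1 and Cxcl2 among protein-coding genes. The genes on either side are neutrophil attractants of inflammation. Cxcl3, the neighbour of Pf4, read 279, 182 and 211 in the controls and 67.8, 57.0 and 31.0 in FOG1 ki/ki. All 3 FOG1 ki/ki arrays were far below all controls. The log2 difference was -1.84 (SE 0.33, limma adjusted p = 0.145). Cxcl3 fell in the fit with the replicate block (adjusted p = 0.0439, or 0.141 with the block and no filter on dim probe sets), the only 1 of the 4 tested cluster genes beside Pf4 and Ppbp that passed in either fit.

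Cxcl1 read 414, 890 and 33.5 against 43.1, 175 and 17.5, and Cxcl2 read 818, 780 and 89.6 against 270, 322 and 56.0. Both were lower within each pair, yet the replicate 3 arrays were the lowest of their groups and the groups overlapped. Their log2 differences were -1.89 and -1.11 (limma, adjusted p = 0.9999 for each, or 0.134 and 0.100 with the replicate block). Cxcl5 read 1165, 929 and 155 against 977, 846 and 321, with a log2 difference of 0.20 (adjusted p = 0.9999), and Cxcl15 was under the brightness limit. The low replicate 3 signals of Cxcl1, Cxcl2 and Cxcl5 went with other markers. The sum of 8 neutrophil markers was 12238, 14474 and 2710 in the controls and 8503, 14742 and 3877 in FOG1 ki/ki, and that of 11 fibroblast markers was 1441, 7135 and 217 against 999, 2872 and 149. Cxcl3 differed by -1.81, -1.44 and -2.27 in pairs 1 to 3, most in pair 3, where the macrophage markers differed least. The part of other cells in these differences was not tested.

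**Figure D3:**
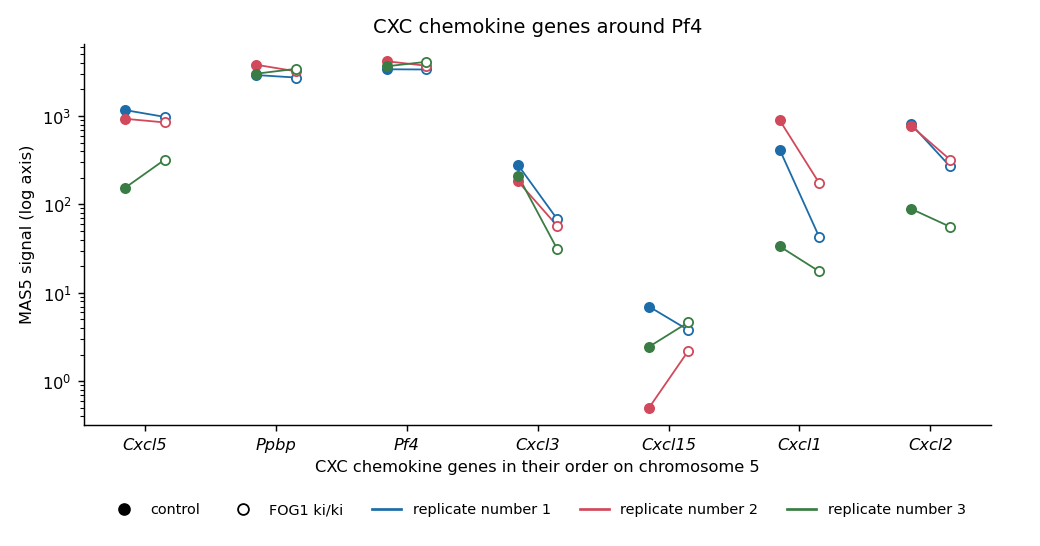
MAS5 signal (log axis) of the 7 CXC chemokine genes in their order along chromosome 5, with filled points for control, open points for FOG1 ki/ki and lines joining arrays of the same replicate number. Pf4 and Ppbp are level while Cxcl3, Cxcl1 and Cxcl2 slope down in all 3 pairs. Signals of different genes come from different probe sets and cannot be compared in height.

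Of 21 other chemokines, growth factors and cytokines found in platelets, 18 were tested, 10 lower and 8 higher, with a median log2 difference of -0.05, and 0 were called in either fit. Ccl17, a chemokine for T helper cells, read 19.7, 22 and 15.3 in the controls and 59.0, 214 and 148 in FOG1 ki/ki, a log2 difference of 2.02 (limma, adjusted p = 0.211, or 0.0756 with the replicate block). Its groups did not overlap. Pdgfd and Pdgfc, the other genes of the PDGF family, had log2 differences of -1.14 and -1.08 (adjusted p = 0.789 and 0.9999), and Grn, a progranulin also made by macrophages, -0.56 (adjusted p = 0.9999). Pdgfc, unlike Pdgfa, read 23.1 in the FOG1+/+ control and 25.5 in FOG1 ki/ki replicate 3, so it was not lower in that pair.

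Of 13 receptors for the members' proteins, 8 were tested, 6 lower and 2 higher, with a median of -0.39 and 0 called in either fit. Cd44, a receptor that binds serglycin, had a log2 difference of -0.36 (adjusted p = 0.779), the VEGF-C co-receptor Nrp2 -1.47 (0.931), the VEGF receptor Kdr 0.74 (0.98) and the Ccl5 receptor Ccr1 -0.87 (0.9999). Of 10 IGF partners 6 were tested, 5 of them lower, with a median of -0.21. Igf2r, which carries IGF2 to lysosomes, had a log2 difference of -1.34 (adjusted p = 0.646), Igfbp5 -0.48, Igfbp6 -0.15 and Igfbp7 -0.24 (adjusted p = 0.9999 each), and 0 were called in either fit.

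Of 21 genes that build glycosaminoglycan chains such as those on serglycin, 15 were tested, 7 lower and 8 higher, with a median of 0.03, and 0 were called in either fit. The chondroitin sulphotransferase Chst12 had a log2 difference of -0.82 (limma, adjusted p = 0.686), Chst15 one of 1.31 (0.751), B3galt6 -1.39 and Csgalnact1 -0.72 (0.9999 each). With the replicate block, limma gave adjusted p of 0.125, 0.284, 0.387 and 0.0819 in the same order. Among 8 proteases that mature growth factors, 4 were tested with a median of -0.10. Furin, which cleaves the PDGF, VEGF-C and IGF precursors, read 630, 823 and 1366 in the controls and 1329, 1406 and 2292 in FOG1 ki/ki. It was higher in each pair although the FOG1+/+ control overlapped the FOG1 ki/ki arrays. Its log2 difference was 0.85 (SE 0.31, limma adjusted p = 0.686). Furin rose in the fit with the replicate block (adjusted p = 0.0461, or 0.15 with the block and no filter on dim probe sets). Adam17, Pcsk7 and Adam10 had log2 differences of -0.34, -0.15 and -0.05 (adjusted p = 0.9999 each).

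**Figure D4:**
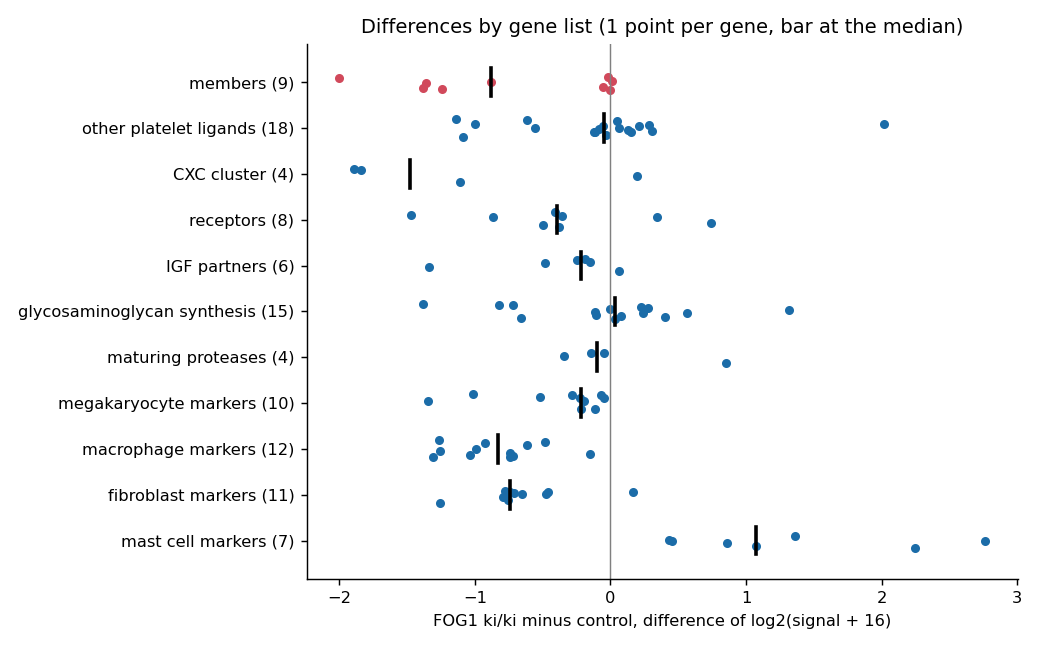
Difference of log2(signal + 16), FOG1 ki/ki minus control, of the tested genes in each list, with 1 point per gene (its brightest probe set), the number of genes in brackets and a bar at the median. The member genes separate into 4 near 0 and 5 below -0.8, the 4 tested CXC cluster genes include 3 below -1, and the macrophage and fibroblast markers lie below 0 with 1 fibroblast exception.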

How the data were processed

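Expression was measured on 6 arrays, 3 control and 3 FOG1 ki/ki. The file holds linear intensities that the authors computed with MAS5 (version not given in the sources used here), per the submitters' processing notes, with 1 deposited value per probe set and array. Their 2% trimmed mean was 150 on every array, so a change in total RNA per cell cannot be seen. RNA had been amplified with NuGEN kits, per the labels' protocols. The log2 of the intensity plus 16 was analysed, which shrinks differences of dim genes. The 64 control probe sets and the lower 50% of the others by mean were left out, and 22518 were tested. The groups were compared with limma 3.58.1 (R 4.3.3, eBayes with a mean trend), and p-values were adjusted by Benjamini-Hochberg with 0.05 as threshold. The fit without the replicate block was tested on simulated data with independent noise on each array, which does not mimic replicate pairs. The fit with the block was not simulated. Python 3.11.15 with pandas 2.3.3, numpy 2.4.6 and matplotlib 3.10.9 did the rest.

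Deviations from group means of same-numbered arrays correlated at 0.438, 0.648 and 0.597, and the numbers were read as pairs. Those of arrays with different numbers correlated at -0.51 to 0.0229. Deviations cancel within a group, so positive values for equal numbers go with negative values for others. The labels do not say whether same-numbered cultures share a litter or a day. A fit with these pairs as a replicate block stands beside some results. The members and lists were chosen with earlier results of these data known. Genes named from a list were the up to 4 with the smallest unadjusted p, read from the brightest probe set of each gene. Promoter sequences are RefSeq's (GRCm38.p6), and 7 of 9 members matched. Other pseudocounts, normalizations, filters and subsets of arrays were tried. The number of arrays limits the precision.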

Additional observations from a re-analysis of the deposited data

How the results depend on the processing

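The 12 probe sets of Ccl5, Pdgfa, Pdgfb, Igf1 and Vegfc stayed below control in the 13 other settings that move the values, 4 of scaling or pseudocount and 9 that leave out arrays. Much of this was fixed in advance, because all 12 were lower in all 3 pairs. Leaving out both arrays of a number or changing the pseudocount could not turn their direction. For the 8 probe sets without overlap between the groups, leaving out any array could not do so either. Among the member probe sets tested, 0 were called in any of 19 alternatives, with as few as 6 tested in the upper 25% only. Over all probe sets, 15 were called, against 24 with quantile normalization, 23 with median centring, 1 with no filter, 1 in the upper 25% only and 118 with the replicate block. With the replicate block and no filter together, a setting chosen after seeing the data, 0 were called and 4443 had an unadjusted p under 0.05. The count was 0 to 3 without 1 array and 0 without both arrays numbered 1, 2 or 3. The 4 members near 0 changed sign. Median centring gave 0.0195 for Pf4 and 0.00663 for Srgn, and a pseudocount of 64 gave -0.000913 for Egf. Without both arrays numbered 2, the values were 0.0793 for Pf4, 0.0431 for Ppbp and 0.0807 for Srgn. For Egf they were -0.0603 without both arrays numbered 1 and -0.16 without both numbered 3. Leaving out 1 array gave -0.0757 to 0.0777 for Pf4, -0.12 to 0.0677 for Ppbp, -0.0917 to 0.0488 for Srgn and -0.19 to 0.23 for Egf. The causes were not tested. The median of all probe sets tested moved by less than 0.1 under each scaling.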
